A study of Mus musculus with 12 samples.

Results

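The 8 genes described here encode pore-forming alpha1 subunits of voltage-gated calcium channels, and they were taken by symbol (Cacna1a, Cacna1b, Cacna1c, Cacna1d, Cacna1e, Cacna1g, Cacna1h and Cacna1i) from the 24079 genes of a count table of ribosome-bound mRNA. All 8 had at least 15 reads summed over the 12 libraries, as did 17823 genes in all. The table compares 6 wild-type with 6 Fmr1-/y libraries, to ask which mRNAs are differently bound to ribosomes when FMRP, the RNA-binding protein encoded by Fmr1, is missing. Every library came from a pool of 4 to 6 adult male mice (2 to 6 months), given as C57BL/6J by the authors, and the controls were wild-type littermates. All mice of both genotypes carried the Wfs1-CreERT2 transgene and the RiboTag allele, and received tamoxifen (100 mg/kg for 3 days) 1 week before dissection. CreERT2, a Cre recombinase that tamoxifen activates, then adds an HA tag to the ribosomal protein Rpl22 in cells that use the Wfs1 promoter, which in the hippocampus are mainly CA1 pyramidal neurons. Tagged ribosomes were immunoprecipitated from whole hippocampus, so RNA of other cells can be carried along. Input RNA was not analysed here, so a difference in ribosome binding and a difference in mRNA amount cannot be told apart.

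Voltage-gated calcium channels open when the membrane depolarizes and let calcium into the cell. The alpha1 subunit forms the pore, senses voltage and binds most channel drugs, and its gene sets the channel type. High-voltage-activated channels comprise the P/Q-type (Cacna1a) and N-type (Cacna1b), which trigger transmitter release at presynaptic terminals, the L-type (Cacna1c and Cacna1d), which couple activity to gene expression in soma and dendrites, and the R-type (Cacna1e), found in dendrites, spines and terminals. Low-voltage-activated T-type channels (Cacna1g, Cacna1h and Cacna1i) open near the resting potential and shape burst firing. The high-voltage-activated subunits assemble with auxiliary beta and alpha2delta subunits, which raise their number at the cell surface, whereas T-type subunits can form channels alone.

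A sequence that sets these classes apart lies in the pore. Each alpha1 subunit has 4 homologous repeats, and each repeat gives 1 acidic residue to the ring that selects calcium. The 27 bases around that codon in repeat III are written 5′ to 3′ on the coding strand, with the codon of the acidic residue in capitals, because this codon separates the T-type genes from the others. They were read from GENCODE vM21 transcripts (GRCm38, the same build as mm10).
Cacna1a: gtgtccacaggaGAGggctggccacag
Cacna1b: gtgtccacgggaGAGgggtggcccatg
Cacna1c: gtctccaccttcGAAgggtggccagag
Cacna1d: gtctcaacttttGAGggctggcccgcg
Cacna1e: gtctctacagggGAAggatggcctcag
Cacna1g: ctggcctccaagGATggctgggttgac
Cacna1h: ctgtcatccaagGATggctgggtaaac
Cacna1i: ttggcctccaagGATggctgggtgaac
The 5 high-voltage-activated genes carried a glutamate codon at this position and the 3 T-type genes an aspartate codon. Between T-type genes 85.2 to 88.9% of the 27 bases were identical, between high-voltage-activated genes 63.0 to 81.5%, and between the classes 40.7 to 55.6%.

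The position of this window in the gene also differed by class. In the T-type genes it lay inside exon 24, at chr11:94426459-94426485 on the minus strand for Cacna1g, chr17:25383496-25383522 on the minus strand for Cacna1h and chr15:80376795-80376821 on the plus strand for Cacna1i. In the high-voltage-activated genes an intron split it. It fell in exons 27 and 28 of Cacna1a (chr8:84581326-84583559, plus strand, intron included), Cacna1c (chr6:118654455-118656138, minus) and Cacna1d (chr14:30099243-30100722, minus). In Cacna1b it fell in exons 28 and 29 (chr2:24650628-24651106, minus), and in Cacna1e in exons 29 and 30 (chr1:154444002-154444897, minus). No member overlapped another protein-coding gene on its own strand.

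Depth and genotype were checked first. Wild-type libraries held 39400980 to 55745464 reads on genes (median 41711923) and Fmr1-/y libraries 43106629 to 65565479 (median 49579609). Fmr1 had 1971 to 2608 reads in wild-type libraries, 0 in 5 Fmr1-/y libraries and 1 read in Fmr1-/y replicate 2. None of the listed markers of CA1 pyramidal neurons was at 0, but neither was any listed marker of other cell types. Presence alone therefore does not check the labelled cell type, and enrichment over input RNA was not measured here. Wfs1, whose promoter drives the Cre, had 1272 ± 175 CPM (SD, n = 6) in wild-type libraries. RNA of other cells was present as well, since the choroid plexus gene Ttr had 8323 ± 2048 CPM. CPM are read counts scaled to a common library size with edgeR's TMM factors, and fewer cells of a type and less RNA per cell cannot be told apart in such pooled tissue.

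In wild-type libraries the order of the alpha1 genes was led by the T-type gene Cacna1i. To compare genes, CPM were divided by the length of their exons in kilobases. These lengths are from GENCODE vM21, whereas the authors counted reads on UCSC gene models, and the effect of this difference was not tested. The mean level per length was 13.0 CPM per kb for Cacna1i, 9.37 for Cacna1b, 7.23 for Cacna1e, 7.19 for Cacna1a, 7.15 for Cacna1h, 5.31 for Cacna1c, 3.73 for Cacna1g and 3.72 for Cacna1d. Cacna1i was above Cacna1b, and Cacna1b above Cacna1e, in all 12 libraries. Cacna1e, Cacna1a and Cacna1h could not be ordered beyond their spread, as Cacna1e was above Cacna1a in 5 of 12 libraries and Cacna1a above Cacna1h in 6 of 12. Cacna1h was above Cacna1c in 11 of 12, and Cacna1c above Cacna1g in all 12. Cacna1g and Cacna1d were lowest and could not be ordered in wild-type libraries, where Cacna1g was above Cacna1d in 3 of 6, while it was above in 0 of 6 Fmr1-/y libraries. Parts of this order turned when levels were divided by coding length instead of exon length. Cacna1e (18.5% of the summed wild-type level) was then above Cacna1b (15.3%), and Cacna1c (13.5%) was above Cacna1h (9.71%) and Cacna1a (9.39%). Cacna1s, the skeletal muscle L-type gene, was far lower at 0.173 CPM per kb, and the retinal gene Cacna1f did not reach 15 reads in total.

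**Figure D1:**
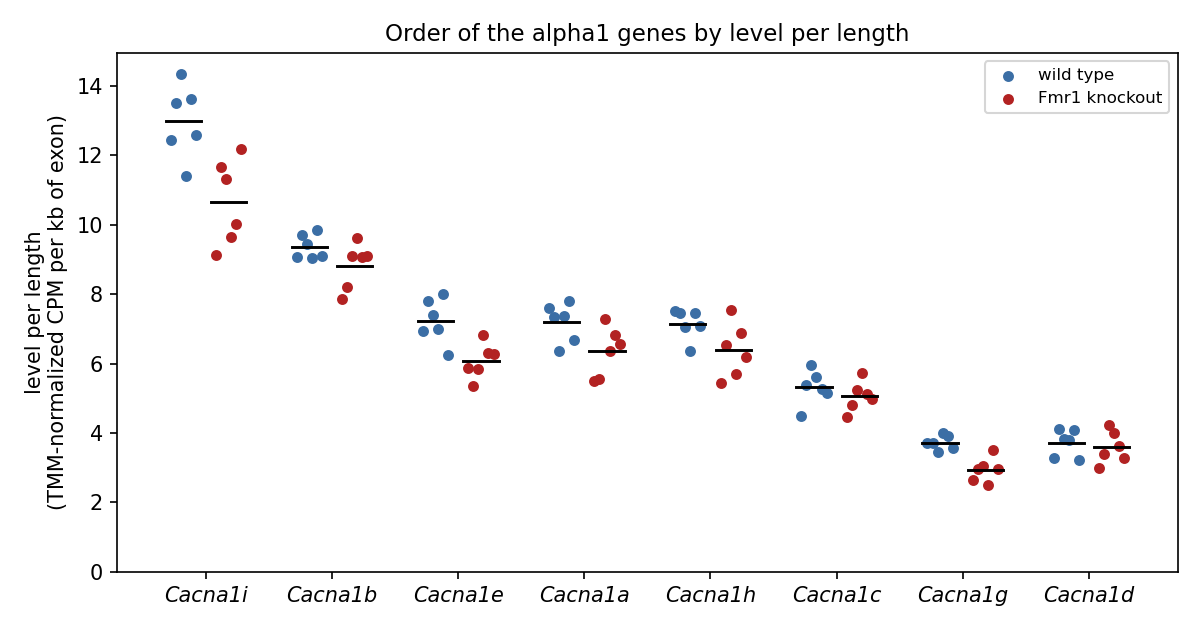
Level per length (TMM-normalized CPM per kb of exon, vertical axis from 0) of the 8 alpha1 genes in each wild-type (blue) and Fmr1-/y (red, labelled Fmr1 knockout) library, in the order of the wild-type means, with black lines for the means of 6 libraries. Cacna1i leads at 13.0 in wild-type and 10.7 in Fmr1-/y libraries, while Cacna1g (3.73 and 2.94) and Cacna1d (3.72 and 3.59) are lowest.

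As a share of the level per length summed over the 8 genes, the T-type genes held 42.1% ± 1.28 (SD, n = 6) in wild-type and 40.1% ± 2.73 in Fmr1-/y libraries. The N-type gene Cacna1b held 16.5% ± 0.221 (16.3 to 17.0%) and 17.7% ± 0.788 (16.9 to 19.1%), and the L-type genes 15.9% ± 1.11 and 17.3% ± 1.10. Shares of the P/Q-type gene Cacna1a (12.7% in both) and of the R-type gene Cacna1e (12.7% ± 0.609 and 12.2% ± 1.11) lay closer together. Divided by coding length instead of exon length, the wild-type shares were 37.4% for the T-type and 19.4% for the L-type genes. They were then 18.5% for the R-type, 15.3% for the N-type and 9.39% for the P/Q-type gene. These shares carry no test, and in each class the ranges of the genotypes overlapped.

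All 8 alpha1 genes had a lower mean in Fmr1-/y than in wild-type libraries, by small amounts, and none passed the threshold of the main test. The means in Fmr1-/y libraries were 78.8% (Cacna1g) to 96.4% (Cacna1d) of those in wild-type libraries. After Benjamini-Hochberg adjustment over the 17823 genes of the edgeR fit (quasi-likelihood test), 0 of the 8 had a p under 0.05, and 4 of all genes tested did (0.0224%). At an unadjusted p under 0.05, which 7.96% of all genes tested reached, 4 of the 8 were lower (Cacna1g, Cacna1i, Cacna1e and Cacna1a) and 0 were higher, against 3.67% of all genes tested lower and 4.29% higher. DESeq2's Wald test passed 1 of the 8, Cacna1g, and 0.571% of the genes it adjusted. The median log2 fold change of the 8 was -0.17, that of all genes tested was 0.00, and 48.6% of all genes tested lay below 0. In none of the 8 were the genotypes free of overlap, against 0.623% of all genes tested. The 8 genes were measured in the same libraries and do not vary independently.

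**Figure D2:**
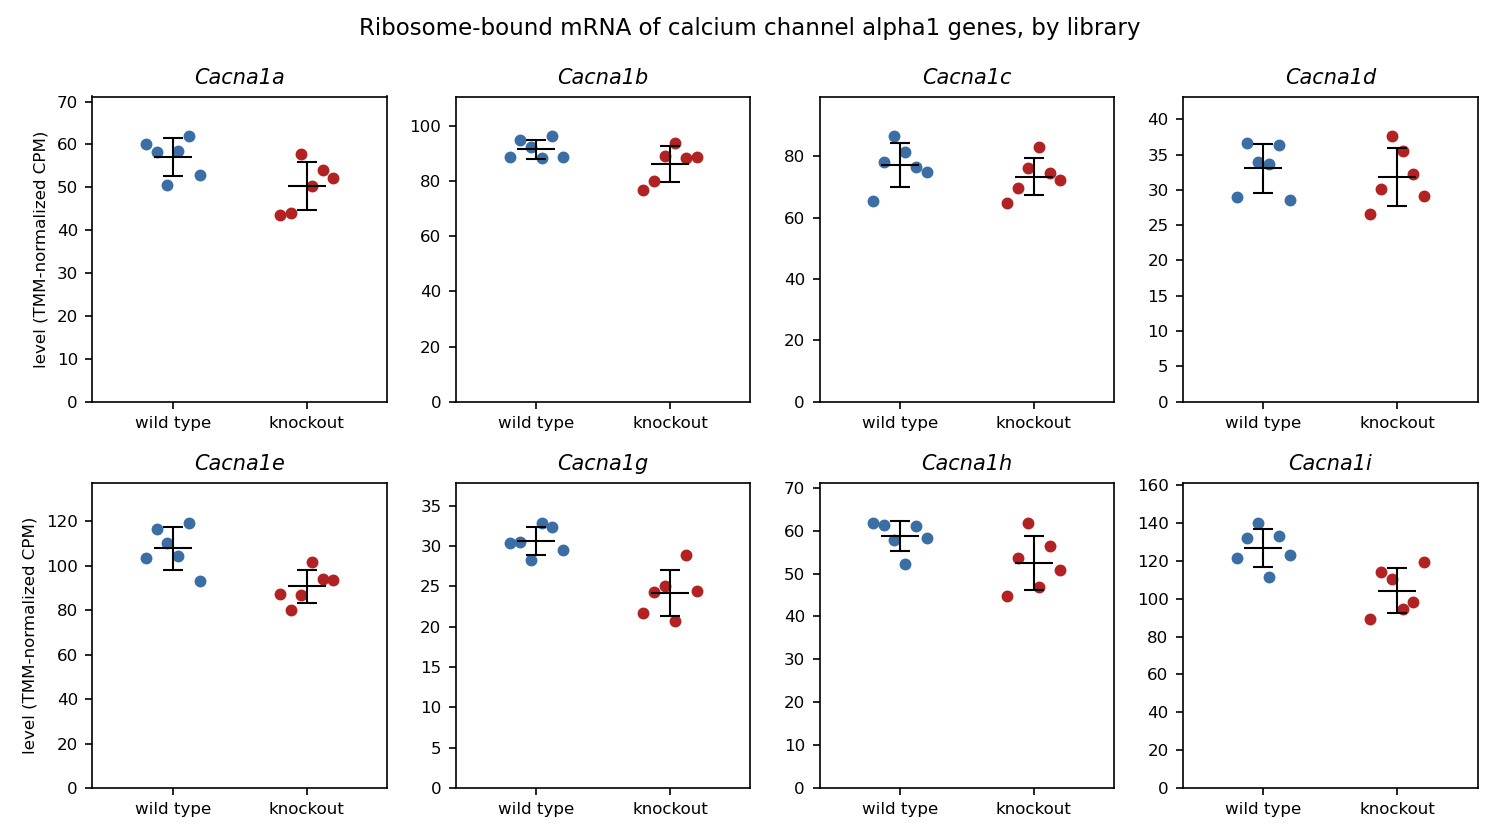
Level (TMM-normalized CPM, vertical axes from 0) of each alpha1 gene in 6 wild-type (blue) and 6 Fmr1-/y (red, labelled knockout) libraries, with the mean and SD in black. Fmr1-/y means are lower in each panel, and the genotypes overlap in each, least for Cacna1g, where 1 of 6 Fmr1-/y libraries reaches the wild-type range.

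Among the T-type genes, Cacna1g (Entrez 12291, chr11:94408391-94474400, minus strand) encodes the Cav3.1 channel. Its level was 28.3 CPM in the lowest wild-type library, 30.4 at the median and 32.9 in the highest, and 20.6, 24.4 and 28.8 CPM in Fmr1-/y libraries. Of the 6 Fmr1-/y libraries, 5 were below each wild-type library, and replicate 5 alone was within the wild-type range. Means were 30.6 ± 1.71 CPM in the wild type and 24.2 ± 2.85 CPM in Fmr1-/y (SD, n = 6 each). The log2 fold change was -0.34 with a 95% interval from -0.52 to -0.17. Its p was 6.2e-04 before adjustment, rank 51 among all genes tested, and 0.216 after adjustment in edgeR. DESeq2 gave the same log2 fold change of -0.34 with an adjusted p of 0.024, so whether Cacna1g is called depends on the tool.

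Cacna1i (Entrez 239556, chr15:80287238-80398292, plus strand) encodes Cav3.3. Wild-type libraries ran from 111.5 to 140.3 CPM with a median of 127.4, and Fmr1-/y libraries from 89.1 to 119.2 CPM with a median of 104.4. The 4 lowest Fmr1-/y libraries were below each wild-type library, and 5 wild-type libraries were above each Fmr1-/y library. The log2 fold change was -0.28 (95% interval -0.45 to -0.12), with an adjusted p of 0.301 in edgeR and 0.083 in DESeq2. Cacna1h (Entrez 58226, chr17:25374285-25436334, minus strand) encodes Cav3.2. It ranged from 52.3 to 61.7 CPM in wild-type libraries (median 59.7) and from 44.8 to 61.9 CPM in Fmr1-/y libraries (median 52.3), so that the highest library of all was Fmr1-/y replicate 3. Its log2 fold change was -0.16 (-0.33 to 0.0015), with an adjusted p of 0.633.

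Of the high-voltage-activated genes, the R-type gene Cacna1e (Entrez 12290, chr1:154390806-154884785, minus strand; Cav2.3) differed most. Its level was 93.1 to 119.5 CPM in wild-type libraries (median 107.4) and 80.0 to 101.9 CPM in Fmr1-/y libraries (median 90.7). Only wild-type replicate 6 lay within the Fmr1-/y range, and 3 Fmr1-/y libraries were below it. The log2 fold change was -0.25 (95% interval -0.40 to -0.10), with an adjusted p of 0.321 in edgeR and 0.104 in DESeq2.

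Both presynaptic genes were lower on average, Cacna1a more than Cacna1b. Cacna1a (Entrez 12286, chr8:84338631-84640251, plus strand; Cav2.1) ranged from 50.5 to 61.9 CPM in wild-type libraries (median 58.3) and from 43.5 to 57.7 CPM in Fmr1-/y libraries (median 51.2). Its 2 lowest libraries were Fmr1-/y replicates 1 and 2, and the log2 fold change was -0.18 (-0.35 to -0.013; adjusted p = 0.586). Cacna1b (Entrez 12287, chr2:24603860-24763200, minus strand; Cav2.2) ranged from 88.3 to 96.3 CPM in wild-type libraries (median 90.6) and from 76.8 to 94.1 CPM in Fmr1-/y libraries (median 88.8). The 2 lowest Fmr1-/y libraries lay below each wild-type library and 2 wild-type libraries lay above each Fmr1-/y library, and the log2 fold change was -0.09 (-0.21 to 0.04; adjusted p = 0.798).

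The L-type genes differed least. Cacna1c (Entrez 12288, chr6:118587240-119197384, minus strand; Cav1.2) had 65.2 to 86.5 CPM in wild-type libraries (median 77.2) and 64.8 to 83.0 CPM in Fmr1-/y libraries (median 73.2), with a log2 fold change of -0.07 (-0.23 to 0.08; adjusted p = 0.886). Cacna1d (Entrez 12289, chr14:30039941-30491156, minus strand; Cav1.3) had 28.6 to 36.6 CPM in wild-type libraries (median 33.8) and 26.5 to 37.6 CPM in Fmr1-/y libraries (median 31.2), with a log2 fold change of -0.05 (-0.25 to 0.14; adjusted p = 0.944). For both genes the ranges of the genotypes nearly coincided. The intervals of the L-type and N-type genes exclude a log2 fold change as low as the -0.28 of Cacna1i. They overlap its own interval (-0.45 to -0.12), however, and hold the -0.16 of the T-type gene Cacna1h. The difference between genes was not tested.

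**Figure D3:**
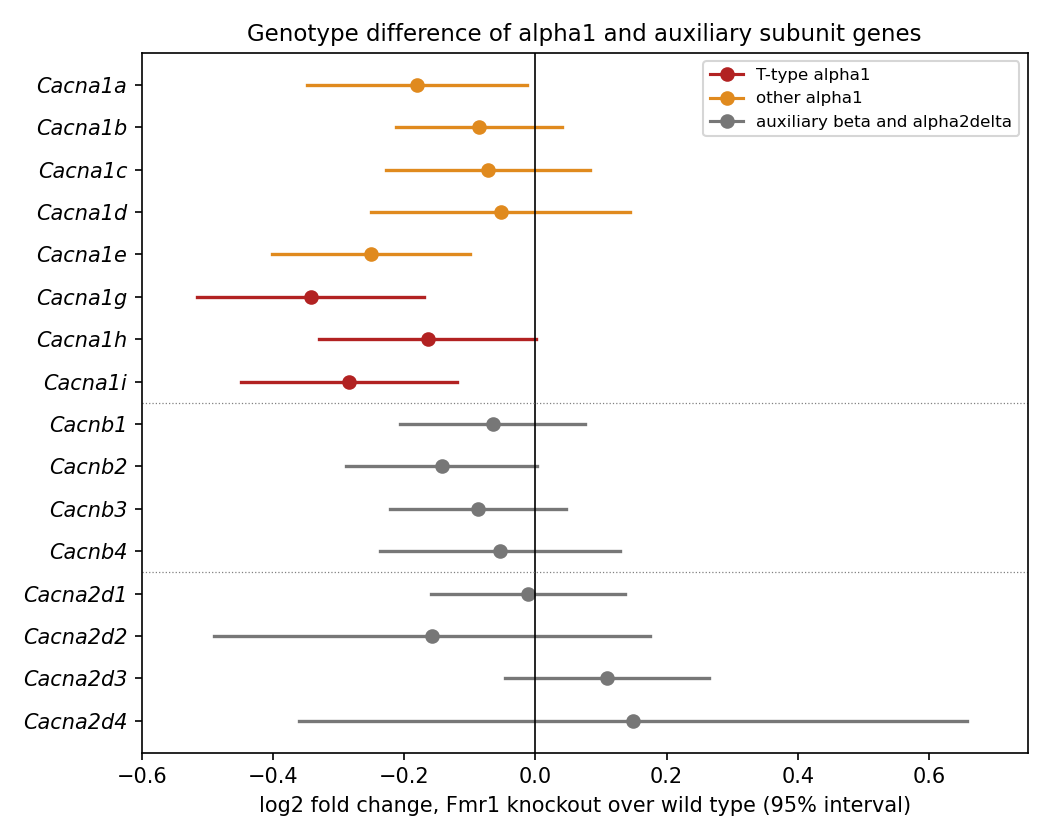
Log2 fold change of Fmr1-/y over wild type (horizontal axis, points) with 95% intervals from edgeR's quasi-likelihood fit (lines) for T-type alpha1 (red), other alpha1 (orange) and auxiliary beta and alpha2delta genes (grey), 6 libraries per genotype. Points of the 8 alpha1 genes lie from -0.34 to -0.05, with intervals wholly below 0 for Cacna1a, Cacna1e, Cacna1g and Cacna1i, while the intervals of the 8 auxiliary genes cross 0.

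The lower levels were spread unevenly over the Fmr1-/y libraries. In Fmr1-/y replicate 1 each of the 8 genes was below its wild-type mean, with a median log2 distance of -0.35. All 8 were below as well in replicates 2, 5 and 6 (medians -0.17, -0.06 and -0.15), and 5 of 8 in replicates 3 and 4 (medians -0.03 and -0.13). Replicate 4 held both the lowest Cacna1g level of all libraries and the highest Cacna1b and Cacna1c levels among Fmr1-/y libraries. Wild-type libraries had medians from -0.05 to 0.08, and in wild-type replicate 6 all 8 genes were below the wild-type mean too. Fmr1-/y replicate 1 also had the highest marker scores (mean log2 CPM) of all 12 libraries for astrocytes (7.62, against 6.90 to 7.16 in wild-type libraries) and for choroid plexus (9.08, against 7.73 to 8.47). Fmr1-/y replicate 2 had the next highest astrocyte score, 7.40, and replicate 4 the next highest choroid plexus score, 8.82, and the lowest CA1 pyramidal score, 8.32. Without Fmr1-/y replicate 1 the log2 fold change was -0.14 for Cacna1a, -0.055 for Cacna1b, -0.039 for Cacna1c and -0.0051 for Cacna1d. It was then -0.12 for Cacna1h, -0.24 for Cacna1e and for Cacna1i, and -0.31 for Cacna1g. The small differences of the L-type genes also moved with other libraries, as Cacna1c ran from -0.12 without wild-type replicate 1 to -0.036 without wild-type replicate 3, and Cacna1d was at -0.11 without Fmr1-/y replicate 3.

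**Figure D4:**
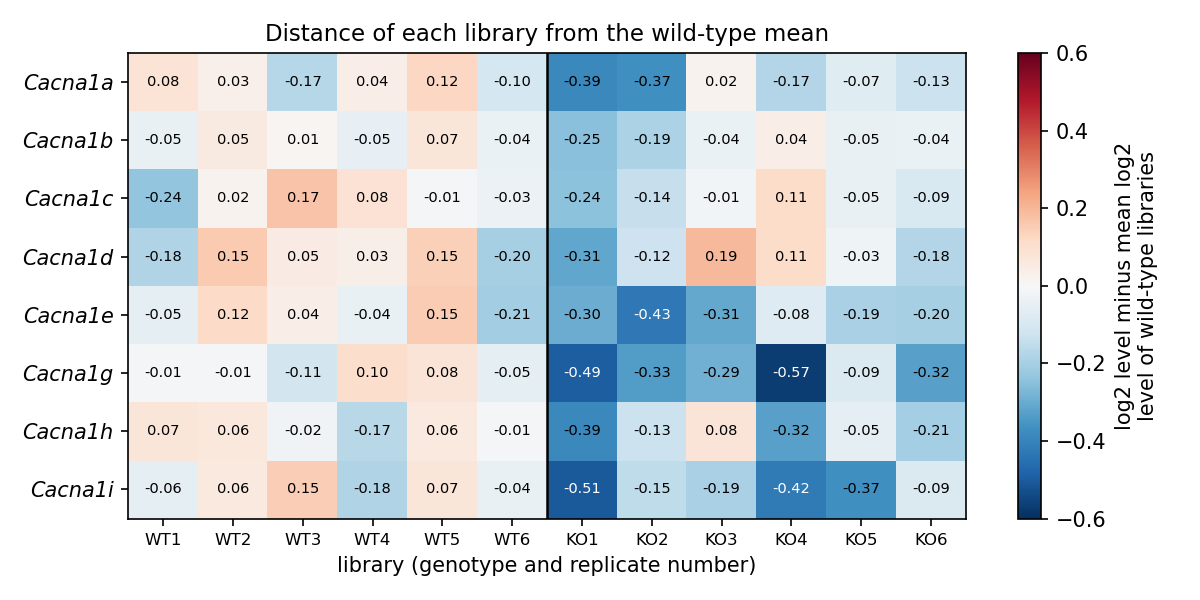
Log2 level of each alpha1 gene (rows) in each library (columns, WT wild type and KO Fmr1-/y, by replicate number) minus the mean log2 level of the 6 wild-type libraries, written in each cell and coloured from blue (lower) to red (higher). KO1 is below the wild-type mean in all 8 genes with a median of -0.35, and Cacna1g is below it in all 6 KO libraries.

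Means of cell type markers differed between the genotypes in the same libraries. However, 0 genes of these lists had an adjusted p under 0.05 in edgeR, against 0.0224% of all genes tested. Of all genes tested, 48.6% had a log2 fold change below 0. All 8 markers of CA1 pyramidal neurons had a lower mean in Fmr1-/y libraries (median log2 fold change -0.10), with Wfs1 at -0.27 (adjusted p = 0.410), and their summed level was 8396 to 10420 CPM in the wild type and 8105 to 9636 CPM without Fmr1. All 4 choroid plexus markers had a higher mean (median 0.46; sums of 6204 to 11620 against 8133 to 17090 CPM), as had all 5 astrocyte markers (median 0.22; 697.8 to 845.8 against 762.5 to 1188 CPM) and all 4 endothelial markers (median 0.33; 24.7 to 35.4 against 29.0 to 45.8 CPM). Of the 9 interneuron markers, 5 had a lower mean (median -0.07; 116.5 to 241.2 against 127.3 to 180.5 CPM). The median log2 fold change was -0.15 for oligodendrocyte, -0.11 for dentate granule, -0.03 for CA3 pyramidal, -0.00060 for CA2 pyramidal and 0.0051 for microglia markers. None of these markers was at 0. With the mean log2 level of the astrocyte markers as a covariate in edgeR, a fit added once the values were known, Cacna1g was at -0.28 (adjusted p = 0.721), and Cacna1i and Cacna1e were at -0.20 each. Cacna1a was at -0.089, Cacna1h at -0.079, Cacna1b at -0.017, Cacna1c at -0.013 and Cacna1d at 0.041. Each of the 8 alpha1 genes lay higher in this fit than without the covariate. With the choroid plexus markers as the covariate Cacna1g was at -0.29, Cacna1e at -0.30, Cacna1i at -0.18, Cacna1a at -0.13, Cacna1c at -0.12, Cacna1b at -0.074 and Cacna1h and Cacna1d at -0.037 each. With the CA1 pyramidal markers Cacna1g was at -0.31, Cacna1e at -0.29, Cacna1i at -0.21, Cacna1a at -0.17, Cacna1c at -0.15, Cacna1d and Cacna1b at -0.11 each and Cacna1h at -0.093. Set against the fit without a covariate, Cacna1c and Cacna1e lay lower with the choroid plexus markers. With the CA1 pyramidal markers Cacna1b, Cacna1c, Cacna1d and Cacna1e lay lower. The other alpha1 genes lay higher in each case. No alpha1 gene passed the threshold in these 3 fits. The marker scores come from the same libraries and their medians differ between the genotypes, so these fits cannot tell cell composition and genotype apart. The part of cell composition in the alpha1 values was not tested.

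Of the auxiliary subunits, 0 of 10 tested passed the threshold and 0 had an unadjusted p under 0.05. Of all genes tested in edgeR, 0.0224% and 7.96% did. The median log2 fold change was -0.06, with 7 of the 10 below 0, against 48.6% of all genes tested. All 4 beta subunits, which bind the intracellular side of high-voltage-activated alpha1 subunits, lay below 0, from Cacnb2 at -0.14 (-0.29 to 0.0029; adjusted p = 0.634) to Cacnb4 at -0.05. The alpha2delta subunits, extracellular proteins that carry the channels to the surface, were split 2 and 2. The pair with the highest levels was Cacna2d3, at 151.5 ± 14.7 CPM in the wild type and 163.4 ± 13.7 CPM in Fmr1-/y (log2 fold change 0.11, -0.05 to 0.27), and Cacna2d1, at 123.2 ± 8.95 and 122.3 ± 11.9 CPM (-0.01, -0.16 to 0.14). Unlike the beta subunits, Cacna2d3 thus had a higher mean in Fmr1-/y libraries, within the spread of the replicates. Cacng1 and Cacng6, gamma subunits of muscle channels, had mean levels of 0.041 and 0.368 CPM in wild-type libraries.

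Among 19 tested genes for regulators of these channels, Fmr1 left out, 0 passed the threshold, against 0.0224% of all genes tested. Of the 19, 14 lay below 0, against 48.6% of all genes tested, and the median log2 fold change was -0.05. At an unadjusted p under 0.05, 3.67% of all genes tested were lower and 4.29% higher. Stac2, an adaptor that binds L-type channels, was the one regulator lower at that p. It had 67.0 ± 11.8 CPM in the wild type and 52.4 ± 14.4 CPM in Fmr1-/y (log2 fold change -0.36, adjusted p = 0.590). Stac3, its muscle counterpart, was the one regulator higher (1.65, adjusted p = 0.448), at 0.212 and 0.662 CPM, where a single Fmr1-/y library stood apart. The active-zone proteins Rims1 and Rims2, which tether channels to release sites, were at -0.04 and -0.05. The ubiquitin-specific protease Usp5, which acts on Cav3.2, was at -0.01 (-0.16 to 0.14).

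The alpha1 genes shared a length that few genes reach. Their coding sequences were 6537 (Cacna1d) to 7104 (Cacna1a) bases long, against a median of 1377 bases over the 16251 tested genes with a matched coding sequence. Among the other 315 tested genes with a coding sequence of at least 6537 bases, 58.1% had a log2 fold change below 0, the median was -0.02, and 8.89% had an unadjusted p under 0.05 and were lower, against 48.3%, 0.01 and 3.73% of the genes with a matched coding sequence. The median of the 8 alpha1 genes, -0.17, was lower than that of the long genes. Base composition differed more, with 48.3% G or C in the transcript of Cacna1e and 60.0% in that of Cacna1h, untranslated regions included. Short motifs that have been linked to FMRP binding in RNA were counted on the coding strand of whole transcripts. AGGA or TGGA occurred 13.3 (Cacna1a) to 16.6 (Cacna1d) times per kb, with a median of 13.7 over all genes matched, and ACTT or ACTG 7.51 (Cacna1g) to 10.7 (Cacna1b) times, with a median of 8.99. An ACTG can share its last letters with a TGGA, and a match marks no binding site. The authors list Cacna1g among the mRNAs lower in Fmr1-/y mice that an earlier study of mouse brain found bound to FMRP.

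The genes whose profiles over the 12 libraries were most like that of Cacna1g, among 13179 genes, were Smyd5, Parp8 and Ache, with root mean square differences of 0.331, 0.393 and 0.436 SD units between standardized log2 levels. For the other members the nearest genes were Lphn2 (Cacna1a, 0.447), Csmd2 (Cacna1b, 0.363), Ypel2 (Cacna1c, 0.280), Pkd1 (Cacna1d, 0.309), Zfr (Cacna1e, 0.276), Abcc8 (Cacna1h, 0.373) and Lrrc20 (Cacna1i, 0.363). No alpha1 gene was among these nearest genes, which with 13179 genes searched does not show whether alpha1 genes vary together. The profiles share libraries and depth, so likeness over 12 libraries is a description only.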

How the data were processed

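The 12 libraries (6 wild-type, 6 Fmr1-/y) hold ribosome-bound polyadenylated RNA. The authors demultiplexed reads with bcl2fastq 2.17, aligned them with TopHat2 2.1.1 (Bowtie2 2.2.8) to mm10, counted them per gene on the opposite strand with HTSeq 0.6.1p1 and deposited raw counts, without normalization. Column names matched the sample titles. The test covered genes with at least 15 reads in total and was run with edgeR 4.0.16 in R 4.3.3 (TMM, quasi-likelihood, Benjamini-Hochberg, threshold 0.05, no covariate). Standard errors were the size of the log2 fold change divided by the square root of F, and 95% intervals used the t quantile of the fit. Alternatives were DESeq2 1.42.0 (defaults, or with its prior on fold changes), voom of limma 3.58.1, other scalings and filters, a replicate block, each library left out and a threshold of 0.1. Marker covariates were added after seeing the data. Gene spans are those of RefSeq on GRCm38. Coding sequences and exon lengths are those of GENCODE vM21 and were matched for 91.2% of the tested genes. The 8 genes, the gene lists and the markers were chosen with earlier results of these data known. Named genes were the 8 members, Fmr1, the genes of the lists (the values of 1 are not reported here), and the genes nearest in profile (3 for Cacna1g, 1 for each other member). The p-values measure the spread between pools of mice.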

Additional observations from a re-analysis of the deposited data

Results flagged for a closer look

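In 78 groups of 6 libraries (39 genes in both genotypes), the gap of the highest or lowest library to its neighbour was compared with the group's range, and a ratio above Dixon's 95% critical value of 0.625 was reached in 6 groups, where chance gives about 3.9. None of the 8 alpha1 genes was among them. Fmr1 in Fmr1-/y replicate 2 reached a ratio of 1 through a single read. In wild-type libraries Cacnb2 was low in replicate 6 (ratio 0.644; 68.2 CPM against 75.4 to 79.4 CPM in the other libraries). Cacng1 was high in wild-type replicate 5 (ratio 0.877; 0.203 CPM against 0 to 0.025 CPM). Rims2 was high in wild-type replicate 2 (ratio 0.812; 62.7 CPM against 49.9 to 52.3 CPM). Rem2 was high in wild-type replicate 1 (ratio 0.689; 26.1 CPM against 19.0 to 21.2 CPM). Stac3 was high in Fmr1-/y replicate 5 (ratio 0.777; 2.05 CPM against 0.108 to 0.541 CPM).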

How the results depend on the processing

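Over 160 comparisons of an alpha1 gene with another setting, those with a marker score left aside, 0 changed sign and 2 crossed the threshold, both for Cacna1g, with DESeq2's current defaults (log2 fold change -0.34) and with its fold change prior (-0.29; adjusted p = 0.024 in each). The number of alpha1 genes past the threshold was thus 1 in both DESeq2 fits, and 0 in edgeR. Over all genes, 84 and 82 passed in these DESeq2 fits against 4 in edgeR. The cause was not tested. With each library left out in edgeR, 2 to 6 genes passed in all, with 2 without wild-type replicate 4, 5 or 6 and without Fmr1-/y replicate 1, 4, 5 or 6. Leaving out each library moved the log2 fold change of Cacna1g from -0.40 to -0.30 (adjusted p 0.156 to 0.517). The replicate numbers were not taken as pairs, as 1 of 12 libraries correlated best with its own number over all genes. Deviations of same-numbered libraries were correlated over 0.1 in 3 of 6 numbers (0.182, 0.156 and 0.217; from -0.164 to 0.00962 in the others). Among genes with a mean log2 CPM above 1 the correlations were 0.221, 0.264 and 0.339 for replicates 1, 3 and 4. They ran from -0.245 to 0.0289 in the others. With the replicate number as a block in edgeR, Cacna1g was at -0.35 (adjusted p = 0.182) and Cacna1i at -0.29 (adjusted p = 0.169). In that fit 4 genes passed in all. With the astrocyte marker score in the fit, an alternative that was added after seeing the data, the log2 fold change of Cacna1d turned to 0.041 (adjusted p = 0.998). Dividing by coding length in place of exon length moved the wild-type shares to 9.39% for Cacna1a, 15.3% for Cacna1b, 13.5% for Cacna1c, 5.89% for Cacna1d, 18.5% for Cacna1e, 5.21% for Cacna1g and 9.71% for Cacna1h, since untranslated regions differ in length among these genes. The order by level per length therefore depends on the length used. Reads per gene do not separate splice forms, and pools of 4 to 6 mice hide the spread between animals.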
